A study of Homo sapiens with 6 samples.

Results

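The aldo-keto reductases described here are a family of NADPH-dependent enzymes that reduce carbonyl groups, listed around AKR1D1 (steroid 5β-reductase). The list held 9 genes, and its members were all probe sets that the platform annotation assigns to a single one of them. It found 14 probe sets of 7 genes, out of 44988 single-symbol probe sets of 18132 genes in all. AKR1A1 and AKR1B1 had no single-symbol probe set among those used and were not analysed here. A further 5 probe sets carried 2 gene symbols, 3 of them AKR1C1 with AKR1C2 and 2 of them AKR1B10 with AKR1B15, and these are given apart. The family was chosen by the log2 difference of AKR1D1 between the same 2 groups, which was among the largest decreases, and its other genes were listed with their values known. The differences of the members are therefore a description, printed with no p-value.

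The cells were ARPE-19, an established human line of retinal pigment epithelium. The 3 SATalpha samples received a plasmid with GFP and satellite alpha, a centromeric repeat. The 3 GFP samples received a plasmid with GFP alone as the control. Both plasmids were given at 2.5 µg per well, and each replicate gave 1 Affymetrix array of 49372 probe sets. Separate cultures are not named in the labels. The errors and p-values therefore cover only the spread between numbered replicates, some of which may be technical. No batch is given, so a batch effect and the plasmid cannot be told apart.

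AKR1D1 reduces the double bond of steroid hormones and of bile acid intermediates and is best known from liver, where its product is bent into the 5β shape of bile acids. AKR1C1 to AKR1C4 are hydroxysteroid dehydrogenases that inactivate or activate steroid hormones at single positions, and AKR1C3 also makes androgens and prostaglandin F2α. AKR1B10 reduces retinal and other aldehydes. AKR7A2 reduces succinic semialdehyde and aflatoxin dialdehyde, and some members of the family are known targets of the oxidative stress factor NRF2.

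The bases just before the transcription start are shown for the genes whose probe sets differed between the plasmids, and for AKR1C1 and AKR1C2, which share 3 probe sets. RefSeq sequences on GRCh38.p14 were matched by symbol for 8 of the 9 listed genes, and each printed run holds the 250 bases upstream of a start, from 5′ to 3′ on the strand of the gene. Capitals mark matches to the antioxidant response element core TGACNNNGC in AKR7A2 and to CCAAT in AKR1C3, read on both strands. In AKR1C1 and AKR1C2 they mark the mismatch between the pair. AKR1D1 has none. AKR1C3 has 2 listed starts, and of the 2 listed for AKR7A2 the one with the higher coordinates is printed. The AKR1D1 run is chr7:138076209-138076458 on the plus strand, those of AKR1C3 are chr10:5048531-5048780 and chr10:5094164-5094413 on the plus strand, and that of AKR7A2 is chr1:19312147-19312396 on the minus strand. AKR1C1 is at chr10:4963165-4963414 on the plus strand and AKR1C2 at chr10:5003858-5004107 on the minus strand.
AKR1D1: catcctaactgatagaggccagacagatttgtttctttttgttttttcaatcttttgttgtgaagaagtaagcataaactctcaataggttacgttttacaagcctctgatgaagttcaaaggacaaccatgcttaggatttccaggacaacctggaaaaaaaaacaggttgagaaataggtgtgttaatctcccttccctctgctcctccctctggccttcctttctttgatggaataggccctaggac
AKR1C3 first start: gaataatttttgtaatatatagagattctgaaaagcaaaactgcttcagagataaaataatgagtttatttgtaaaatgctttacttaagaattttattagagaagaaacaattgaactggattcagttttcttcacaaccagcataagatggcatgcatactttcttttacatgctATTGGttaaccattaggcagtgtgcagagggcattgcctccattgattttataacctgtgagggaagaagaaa
AKR1C3 second start: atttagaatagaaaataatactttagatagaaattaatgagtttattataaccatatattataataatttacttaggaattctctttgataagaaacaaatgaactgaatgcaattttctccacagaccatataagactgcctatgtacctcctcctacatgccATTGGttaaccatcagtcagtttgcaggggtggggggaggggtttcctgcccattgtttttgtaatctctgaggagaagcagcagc
AKR7A2: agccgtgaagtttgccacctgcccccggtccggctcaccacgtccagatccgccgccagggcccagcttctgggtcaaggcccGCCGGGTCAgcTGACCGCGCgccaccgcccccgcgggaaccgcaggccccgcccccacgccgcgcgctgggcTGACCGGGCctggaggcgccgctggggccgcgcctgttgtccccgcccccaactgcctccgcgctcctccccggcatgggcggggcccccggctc
AKR1C1: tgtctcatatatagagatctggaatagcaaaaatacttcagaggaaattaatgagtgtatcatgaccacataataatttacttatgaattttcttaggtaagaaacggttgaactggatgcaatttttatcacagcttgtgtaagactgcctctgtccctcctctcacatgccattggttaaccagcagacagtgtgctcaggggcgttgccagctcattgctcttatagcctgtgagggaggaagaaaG
AKR1C2: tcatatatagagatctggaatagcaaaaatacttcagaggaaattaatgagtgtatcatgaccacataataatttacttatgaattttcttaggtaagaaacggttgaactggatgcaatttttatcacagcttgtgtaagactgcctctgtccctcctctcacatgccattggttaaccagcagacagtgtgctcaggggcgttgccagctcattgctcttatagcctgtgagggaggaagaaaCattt

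The upstream runs of AKR1C1 and AKR1C2 were the same at 245 of 246 aligned bases (99.6%). Those of AKR1C1 and AKR1C3 matched at 79.1% and 80.6% for the 2 AKR1C3 starts, and those of AKR1C1 and AKR1C4 at 80.1%. The AKR1D1 run had 40.8% G and C and 1 CpG, against medians of 58% and 11 over 35116 upstream runs of this length. The AKR7A2 run had 78.8% G and C and 31 CpGs, and both AKR1C3 runs had 0 CpGs. In all, 7 motifs were searched on both strands. TGACNNNGC stood in 10.9% of all runs, and AKR7A2 held 3 matches that do not overlap. The clock E-box CACGTG stood in 6.34% of all runs, the nuclear receptor half-site AGGTCA in 12.1%, and the HNF4 element CAAAGTCCA in 0.325%. The EGR1 site GCGTGGGCG stood in 0.72%, the AP-1 site TGANTCA in 6.57% and CCAAT in 32%. None of the 7 was found in the AKR1D1 run. Each AKR1C3, AKR1C1 and AKR1C2 run held 1 CCAAT match, and AKR1C4 held 0 of any of the 7. A match is a run of letters and not a shown binding site.

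Satellite alpha arrays had less AKR1D1 and AKR7A2 signal and more AKR1C3 signal than GFP arrays, while the groups overlapped in every single-symbol probe set of AKR1C1, AKR1C2, AKR1C4 and AKR1B10. In a limma fit over all 49293 non-control probe sets, 4 of the 14 member probe sets were past a Benjamini-Hochberg adjusted threshold of 0.05, with 1 higher (AKR1C3) and 3 lower (AKR1D1 and 2 of AKR7A2). Over all probe sets, 8.36% were called, 4.18% higher and 4.19% lower. The same 4 probe sets were the ones without overlap between the groups, a state found in 26.0% of all probe sets. The comparison chose the list, so nothing is read from these shares. The median log2 difference over the 14 probe sets, as SATalpha minus GFP, was -0.08, and over all probe sets it was -0.00029. In bulk RNA, fewer cells that express a gene and less RNA per cell cannot be told apart.

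**Figure D1:**
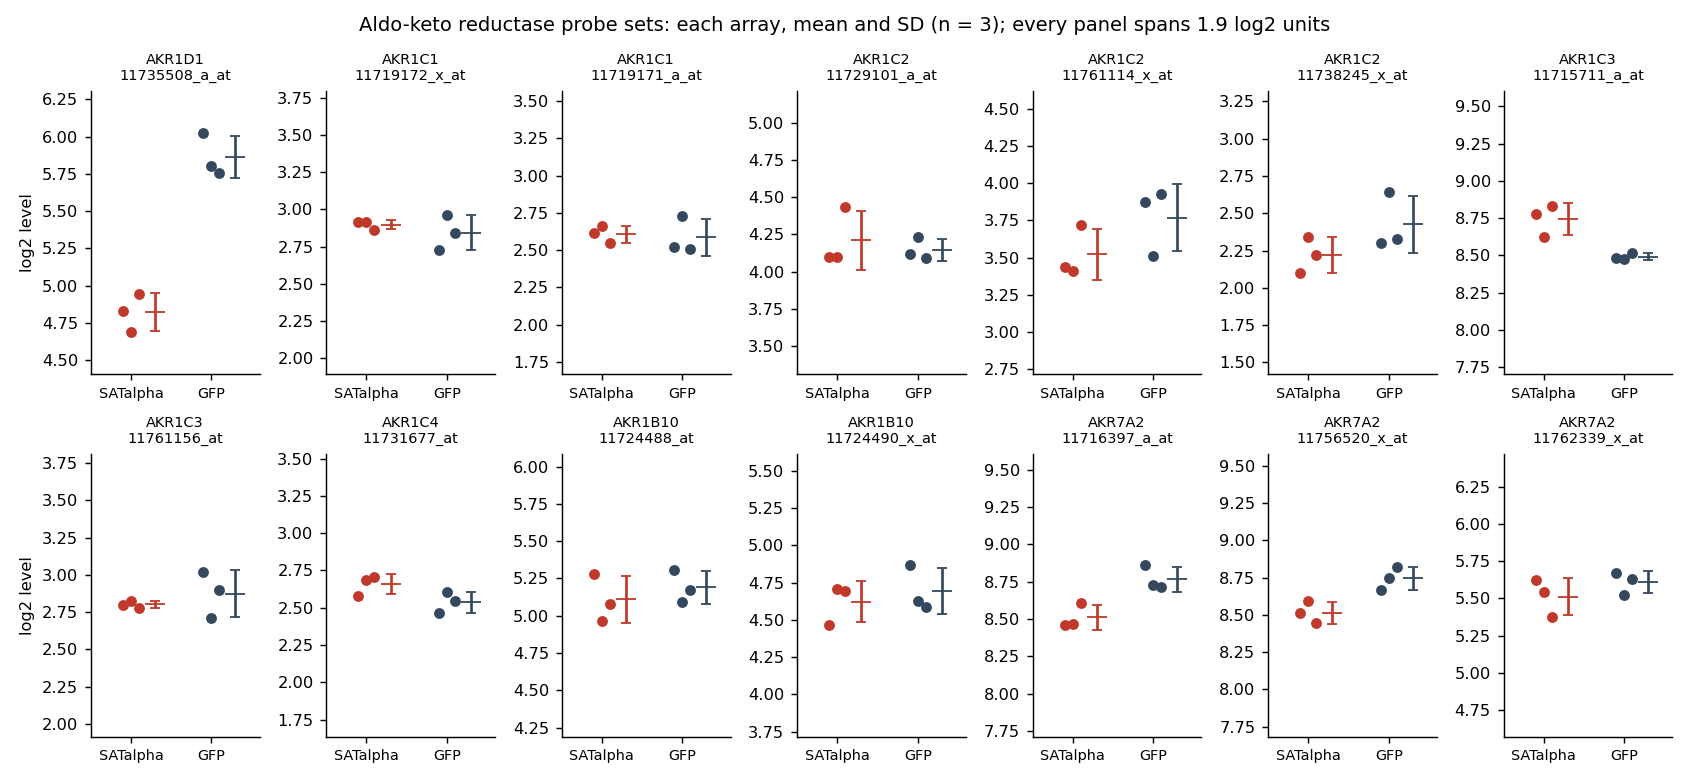
Log2 level of each of the 14 single-symbol probe sets on each array, SATalpha in red and GFP in dark blue, with the mean and SD of 3 arrays beside the points. Every panel spans the same 1.9 log2 units; the AKR1D1 groups lie about a full log2 unit apart, with SATalpha between 4.69 and 4.94 and GFP between 5.76 and 6.02.

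AKR1D1 had 1 probe set (11735508_a_at). Its log2 level was 4.83, 4.69 and 4.94 in the satellite alpha replicates 1 to 3, against 5.80 and 5.76 in GFP replicates 2 and 3 and 6.02 in GFP replicate 1. The groups did not overlap, and the gap between the highest satellite alpha array and the lowest GFP array was wider than the range of either group. The means were 4.82 ± 0.13 with satellite alpha and 5.86 ± 0.14 with GFP (SD, n = 3). The log2 difference was -1.04 (SE 0.11). The satellite alpha arrays lay close to the level of 4.61 under which the lowest 40% of probe sets fall, and no detection calls were used here, so no fold is given. Counting AKR1D1 itself, 19 of 49293 probe sets were lower by at least this much. With a single probe set, no second measurement of this transcript was available.

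AKR7A2 was measured by 3 probe sets, and all 3 were lower with satellite alpha. The first (11716397_a_at) was at 8.46, 8.47 and 8.61 in satellite alpha arrays, against 8.86, 8.73 and 8.71 in GFP arrays, a log2 difference of -0.25 (SE 0.06). The second (11756520_x_at) was at 8.51, 8.59 and 8.44 in satellite alpha arrays, against 8.67, 8.75 and 8.82 in GFP arrays, a difference of -0.23 (SE 0.06). In both, every satellite alpha array lay below every GFP array. The third (11762339_x_at) was at 5.62, 5.54 and 5.38 in satellite alpha arrays, against 5.67, 5.53 and 5.63 in GFP arrays, a difference of -0.10 (SE 0.09) with overlapping groups. An Affymetrix ID that ends in x_at or s_at marks possible matches to more than 1 transcript. The first lost its call without GFP replicate 1 (-0.21) or SATalpha replicate 1 (-0.23), and the second without GFP replicate 2 (-0.23), GFP replicate 3 (-0.19) or SATalpha replicate 1 (-0.23). Both also lost it in a fit with no mean-variance trend.

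Among the AKR1C members, AKR1C3 alone had a called probe set, and it alone had a probe set above the level of 4.61. Its brighter probe set (11715711_a_at) was at 8.78, 8.63 and 8.83 in satellite alpha arrays, against 8.48, 8.48 and 8.52 in GFP arrays. The satellite alpha arrays all lay above the GFP arrays and were spread more widely, at 8.75 ± 0.11 against 8.49 ± 0.02 (SD, n = 3). The log2 difference was 0.25 (SE 0.06). The other AKR1C3 probe set (11761156_at) was dim, at 2.80 ± 0.02 with satellite alpha and 2.87 ± 0.16 with GFP (SD, n = 3), and differed by -0.07 with overlapping groups. As the mean of both probe sets AKR1C3 differed by 0.09 and was not called. The call of the brighter one was lost without GFP replicate 1 (0.25), GFP replicate 2 (0.24) or SATalpha replicate 1 (0.24), and with no mean-variance trend.

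AKR1C1, AKR1C2 and AKR1C4 were dim throughout. Every one of their 6 probe sets lay below the log2 level of 4.61 under which the lowest 40% of probe sets fall, and none was called. The single-array values of AKR1C1 and AKR1C2 ranged from 2.10 to 4.43, where the table's lowest value was 1.61. No detection calls were used here, so whether these genes were transcribed cannot be said from these levels. The 2 AKR1C1 probe sets differed by 0.05 and 0.02 (SE 0.10 each). The 3 AKR1C2 probe sets disagreed in sign, at 0.06 (SE 0.12), -0.25 (SE 0.13) and -0.21 (SE 0.11). AKR1C4, the liver member, was at 2.58, 2.69 and 2.71 in satellite alpha arrays, against 2.46, 2.61 and 2.54 in GFP arrays, a difference of 0.12 (SE 0.10) with overlapping groups.

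The 3 probe sets shared by AKR1C1 and AKR1C2 were as dim, and none was called. They differed by -0.03 (SE 0.10), -0.28 (SE 0.11) and 0.12 (SE 0.12). In the one at -0.28 (11754189_s_at) the groups did not overlap, with 1.99, 1.95 and 1.97 in satellite alpha arrays, against 2.18, 2.50 and 2.09 in GFP arrays. These levels stand close to the lowest value of the table.

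AKR1B10 had 2 probe sets with near-equal small differences. The first (11724488_at) was at 5.28, 4.97 and 5.08 in satellite alpha arrays, against 5.31, 5.09 and 5.18 in GFP arrays, a difference of -0.08 (SE 0.11). The second (11724490_x_at) was at 4.46, 4.71 and 4.69 in satellite alpha arrays, against 4.87, 4.63 and 4.58 in GFP arrays, a difference of -0.07 (SE 0.12). In both the groups overlapped. The 2 probe sets shared with AKR1B15 differed in opposite directions, at -0.16 (SE 0.16) and 0.16 (SE 0.14).

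**Figure D2:**
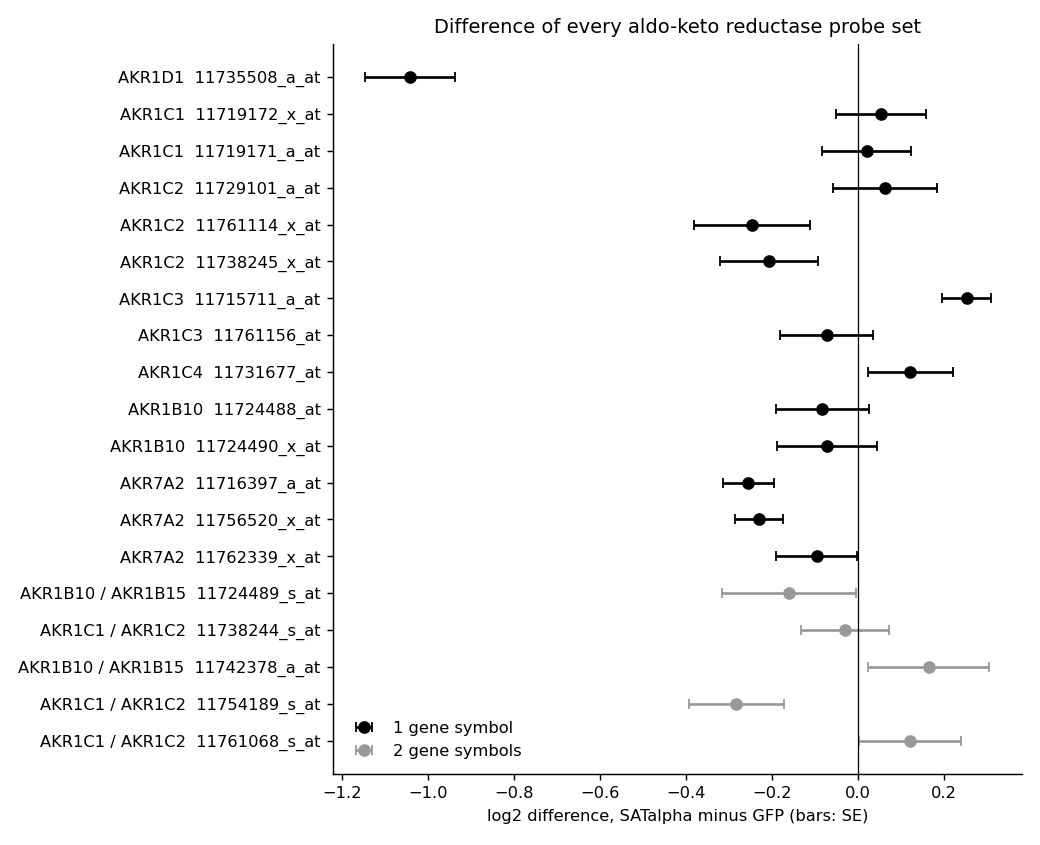
Log2 difference, SATalpha minus GFP, of the 14 single-symbol probe sets (black) and the 5 probe sets with 2 gene symbols (grey), with limma's SE as bars. AKR1D1 stands at -1.04, and all the others lie between -0.28 and 0.25.

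The genes whose 6 values, each centred on its own mean, lay nearest to those of AKR1D1 were named by Euclidean distance among 10878 other genes above the floor for genes (a mean log2 level of 5.19). They were LPXN (distance 0.26), C6orf58 (0.26), SOCS2 (0.30), CIART (0.33) and KRCC1 (0.33). LPXN encodes the focal adhesion protein leupaxin, SOCS2 a suppressor of cytokine signalling, and CIART a repressor of the circadian clock. With 6 arrays in 2 groups the distance is set mainly by the size of the group difference. The floor was set on the mean of all 6 arrays. C6orf58, like AKR1D1, passed it through the GFP arrays, and its satellite alpha arrays lay below it. C6orf58 was at 4.74 ± 0.16 with satellite alpha and 5.73 ± 0.08 with GFP, and SOCS2 at 7.11 ± 0.08 with satellite alpha and 8.13 ± 0.08 with GFP (SD, n = 3). Their log2 differences were -0.997 (C6orf58) and -1.02 (SOCS2), against -0.85 for LPXN, -1.29 for CIART and -0.81 for KRCC1. GFP replicate 1 was the highest array for AKR1D1, LPXN, C6orf58, CIART and KRCC1, and GFP replicate 2 for SOCS2. The genes were picked for likeness over all 6 values, so nothing is read from this.

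**Figure D3:**
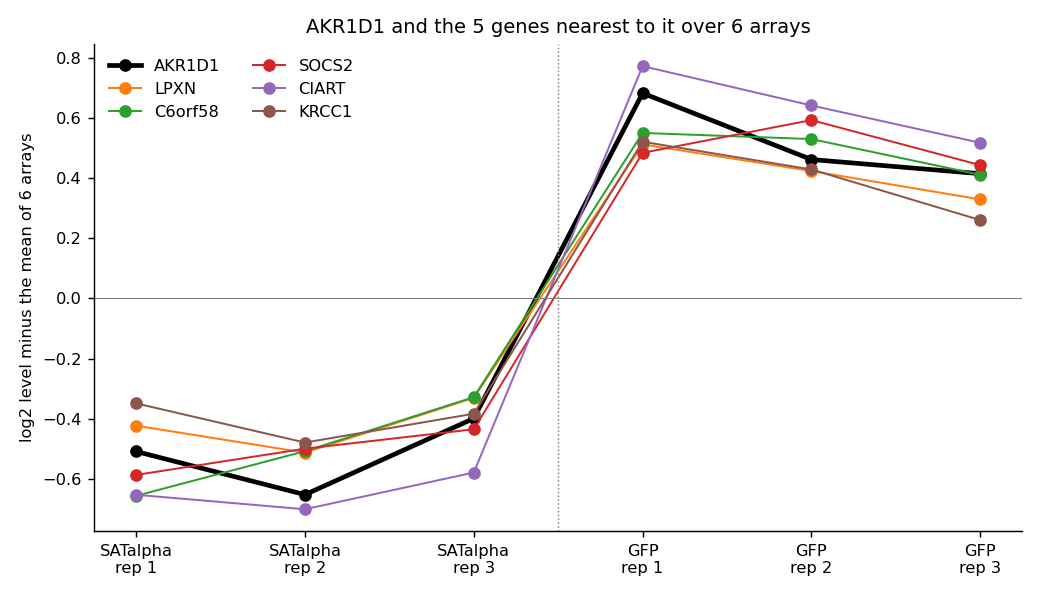
Log2 level minus the mean of the 6 arrays for AKR1D1 (black, thick) and the 5 genes nearest to it, by array. Lines join the points of a gene and show no order of arrays. All 6 genes are below 0 on the 3 SATalpha arrays and above 0 on the 3 GFP arrays, which follows from how the 5 were picked.

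The genes that flank AKR1D1 on chromosome 7, chosen after the data were examined, were tested in the same fit. DGKI and CREB3L2 on the side of lower coordinates differed by 0.12 (limma adjusted p = 0.709) and -0.08 (limma adjusted p = 0.508). TRIM24 and SVOPL on the other side differed by -0.20 (limma adjusted p = 0.158) and 0.16 (limma adjusted p = 0.417). None of the 4 passed the threshold. The groups did not overlap in 2 of the 4, in opposite directions, beside 26.0% of all probe sets. TRIM24, a transcriptional cofactor, was at 6.07, 5.95 and 6.13 in satellite alpha arrays, against 6.17, 6.28 and 6.32 in GFP arrays. SVOPL was at 2.74, 2.95 and 2.81 in satellite alpha arrays, against 2.70, 2.67 and 2.67 in GFP arrays. Of the genes beside AKR7A2 on chromosome 1, MRTO4 differed by 0.03, AKR7A3 by -0.13, SLC66A1 by -0.19 and CAPZB by -0.04, and none passed (limma adjusted p from 0.165 to 0.748). SLC66A1 was the only one of these whose groups did not overlap, at 6.12, 6.09 and 6.21 in satellite alpha arrays, against 6.31, 6.40 and 6.28 in GFP arrays. Beside AKR1C3 on chromosome 10 the nearest genes that are not members were KLF6 and UCN3 at 0.05 and 0.04, AKR1E2 at 0.01 and AKR1C8 at -0.17, and none passed (limma adjusted p from 0.450 to 0.963).

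Relatives of the family outside the list did not pass either. These were other AKR genes and the potassium channel β subunits, which share the aldo-keto reductase fold. Of 7 measured genes 0 were called by limma, with 3 at an unadjusted p under 0.05. KCNAB3 was at 5.11 ± 0.11 with satellite alpha and 4.85 ± 0.03 with GFP (SD, n = 3), and differed by 0.27 (SE 0.10, limma adjusted p = 0.123). KCNAB1 differed by 0.24 (limma adjusted p = 0.165), although its other probe sets differed by -0.24 and 0.03. The third of these, KCNAB2, chosen after its value was seen, differed by 0.21 (limma adjusted p = 0.197), and its other probe sets by -0.07 to 0.09. Of the 7 genes 2 lay above the gene floor, and KCNAB1 and KCNAB3 were not among them. The list had a median of 0.17, the value of AKR1B15, which also lay below the floor, against -0.01 over all 18132 genes. Over those genes, each represented by its brightest probe set, 9.45% were called, 3.46% higher and 5.98% lower.

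Genes of bile acid synthesis, the pathway in which AKR1D1 acts, were measured for 15 of 17 listed genes, and 0 were called by limma, with 0 at an unadjusted p under 0.05. Their median difference was -0.01. CYP7B1, which hydroxylates oxysterols, differed by 0.18 (SE 0.11, limma adjusted p = 0.377), and ACOX2, which shortens the side chain, by -0.11 (SE 0.07, limma adjusted p = 0.451). CYP7B1 was among the 7 of these genes whose levels lay below the gene floor. Steroid and bile acid receptors had 0 calls of 11 measured, with 1 at an unadjusted p under 0.05. This was the progesterone receptor PGR, below the floor, at 0.31 (limma adjusted p = 0.116), while the vitamin D receptor VDR differed by -0.09 (limma adjusted p = 0.595).

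Steroid hormone metabolism had 1 lower and 0 higher genes of 27 measured, beside 5.98% lower and 3.46% higher over all genes. The median of the list was -0.01. HSD17B7, an enzyme of estradiol and cholesterol synthesis, was at 5.61, 5.54 and 5.40 in satellite alpha arrays, against 5.95, 5.85 and 5.84 in GFP arrays. It fell by 0.36 (SE 0.09, limma adjusted p = 0.0227). Across the alternatives the limma adjusted p ran between 0.0105 and 0.118. The call was lost without GFP replicate 1 (-0.32), GFP replicate 2 (-0.38) or SATalpha replicate 3 (-0.30).

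Other enzymes of carbonyl and aldehyde metabolism had 3 lower and 0 higher genes of 29 measured, with a median of 0.02. Over all genes, 9.45% were called, 5.98% lower and 3.46% higher, and nothing is read from the count. CBR3, a carbonyl reductase of the short-chain dehydrogenase family, was at 6.62, 6.52 and 6.58 in satellite alpha arrays, against 7.07, 6.84 and 6.93 in GFP arrays. It fell by 0.38 (SE 0.08, limma adjusted p = 0.00588), with an adjusted p between 0.00265 and 0.0518 across the alternatives, and lost the call without GFP replicate 1 (-0.32). CBR4, a mitochondrial relative, fell by 0.25 (SE 0.06, limma adjusted p = 0.0228), with -0.12 and -0.19 in its remaining probe sets. HAGH, the second enzyme of the glyoxalase system, fell by 0.16 (SE 0.05, limma adjusted p = 0.0430), with -0.09 and -0.06 in its remaining probe sets. CBR4 lost the call without GFP replicate 1 (-0.22), GFP replicate 2 (-0.25) or SATalpha replicate 1 (-0.25). HAGH kept it only when SATalpha replicate 3 was the array left out, and differed by -0.14 to -0.17 without each of the other 5.

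The NRF2 pathway had 3 higher and 2 lower genes of 27 measured, beside 3.46% higher and 5.98% lower over all genes. Its median was 0.01. OSGIN1, an inhibitor of growth induced by oxidative stress, was at 6.39, 6.61 and 6.53 in satellite alpha arrays, against 7.10, 7.09 and 7.11 in GFP arrays. It fell by 0.59 (SE 0.07, limma adjusted p = 0.000165), and its other probe set differed by -0.94. The peroxiredoxin PRDX1 and the quinone reductase NQO1 rose by 0.15 (SE 0.03, limma adjusted p = 0.00561) and 0.16 (SE 0.03, limma adjusted p = 0.00628), and the other NQO1 probe set differed by 0.25. With no mean-variance trend neither was called, at a limma adjusted p of 0.208 for PRDX1 and 0.191 for NQO1. UGDH, which makes UDP-glucuronate, rose by 0.27 (SE 0.07, limma adjusted p = 0.0260), and by 0.32 in its other probe set. This call did not survive the removal of GFP replicate 1 (0.25) or 2 (0.23), or of SATalpha replicate 1 (0.27) or 2 (0.22). NFE2L2, which encodes NRF2 itself and was singled out with its value known, fell by 0.15 (SE 0.04, limma adjusted p = 0.0464), and its other probe set differed by -0.18. Median centring ended this call (limma adjusted p = 0.0537), and over all alternatives the adjusted p lay between 0.0225 and 0.261. Of the replicates, SATalpha replicate 1 was the one NFE2L2 could lose and stay past the threshold; without each of the other 5 it differed by -0.11 to -0.16.

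**Figure D4:**
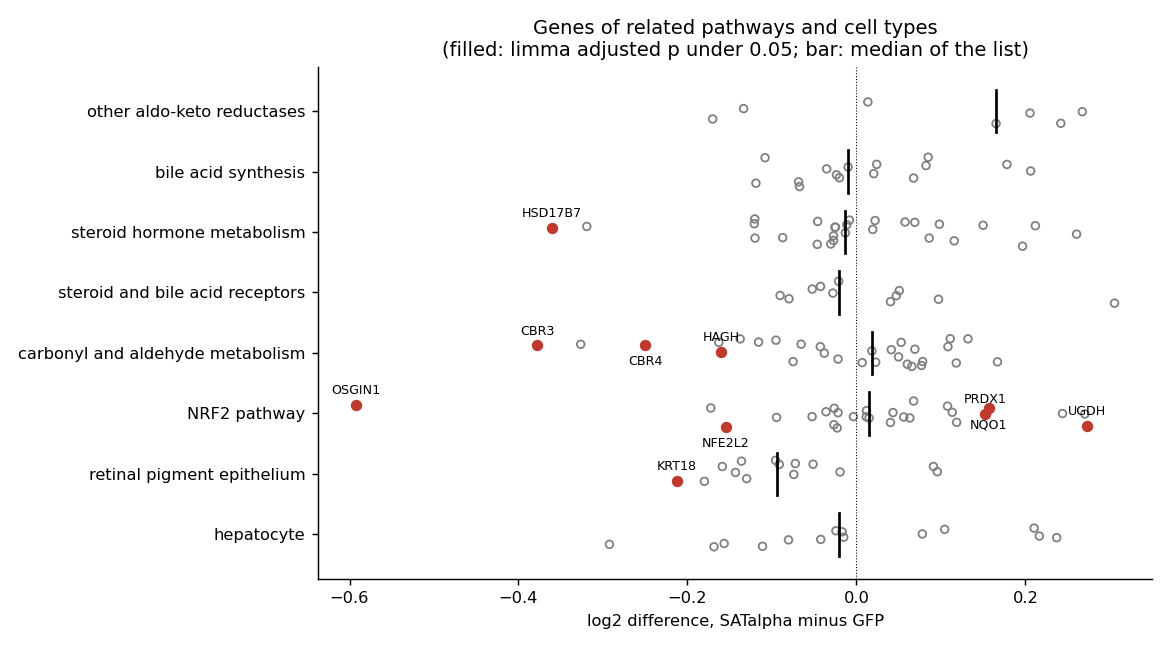
Log2 difference, SATalpha minus GFP, of each measured gene in 6 lists of related genes and 2 lists of cell type markers, 1 point a gene, with vertical scatter added to separate points. Filled points passed limma's adjusted threshold of 0.05, and the black bar is the median of the list; the 10 filled points lie between -0.59 (OSGIN1) and 0.27 (UGDH).

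The cell type behind the AKR1D1 signal was set against marker lists. Hepatocytes, the best known source of AKR1D1, had 1 of 14 measured markers above the gene floor. This was AFP, at 6.65 ± 0.05 with satellite alpha and 6.81 ± 0.11 with GFP (SD, n = 3), followed by APOA1 and SERPINA1 at 4.78 and 4.39 with satellite alpha and 4.81 and 4.68 with GFP. The dimmest were APOB, APOA2 and FGG, at 2.65, 2.64 and 2.38 with satellite alpha and 2.76, 2.66 and 2.55 with GFP. By limma 0 of the 14 were called, with 1 at an unadjusted p under 0.05. The mean level of the list over an array ran from 3.63 to 3.73 with satellite alpha and from 3.63 to 3.71 with GFP, ranges that overlap.

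For retinal pigment epithelium, 8 of 14 measured markers lay above the gene floor. The brightest were the keratins KRT18 and KRT8 and the membrane linker EZR, at 12.00, 11.35 and 11.05 with satellite alpha and 12.22, 11.48 and 10.96 with GFP. The dimmest were TYRP1, RPE65 and MERTK, at 3.47, 3.33 and 2.76 with satellite alpha and 3.54, 3.48 and 2.84 with GFP. RPE65 is the isomerase of the visual cycle and TYRP1 a pigment enzyme, and both lay below the gene floor. So did BEST1, LRAT, RLBP1 and MERTK. KRT18 fell by 0.21 (SE 0.03, limma adjusted p = 0.00139), and no other marker passed. Its other probe set differed by -0.09 (limma adjusted p = 0.151), and with no mean-variance trend KRT18 was not called (limma adjusted p = 0.114). The mean level of the list ran from 6.42 to 6.45 with satellite alpha and from 6.49 to 6.54 with GFP. These ranges do not overlap, and their part in the AKR differences was not tested. Groups did not overlap in 26.0% of single probe sets, and no such share was computed for list means. The median difference of the list was -0.09, against -0.01 over all genes. At an unadjusted limma p under 0.05 stood 3 markers, with KRT18 and KRT8 lower and EZR higher.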

How the data were processed

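RNA of 6 samples was labelled with a 3′ IVT kit for Affymetrix arrays, per the labels' protocols. The deposited values are on a log2 scale, as read from their range. MAS5 and RMA both appear in the submitters' processing notes, and which of them made the values is not stated; no version or filter is named either. Array medians lay between 5.29 and 5.32, so no further scaling was applied. Gene names came from the platform annotation, with 44988 single-symbol, 1832 several-symbol and 2473 unlisted probe sets beside 79 controls.

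SATalpha minus GFP was fitted with limma 3.58.1 in R 4.3.3 (lmFit, eBayes with a mean-variance trend) over 49293 probe sets with no floor, with Benjamini-Hochberg adjustment and a threshold of 0.05. Precision is limited by having 3 arrays a group (median SE 0.10). Tested on simulated data made from the 6 arrays (49293 probe sets, SATalpha minus GFP), the fit recovered 8.4% of 1.2-fold, 57.2% of 1.5-fold and 91.2% of 2-fold changes, with 3.99% of calls false. Far fewer probe sets were changed in the simulation than were called in the data, and its noise was independent and normal. These rates therefore need not hold for the real fit. Lists were represented by the brightest probe set of each gene. All members were named, with up to 4 called genes of each list by smallest p, or up to 2 genes as values where none was called, the 3 brightest and 3 dimmest markers of each cell type and the 5 genes nearest to AKR1D1. The members and lists were chosen with earlier results of these data known. Upstream sequences were aligned and searched with Python 3.11.15 and Biopython 1.88.

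Alternatives were 2 filters, quantile normalization, median centring, the replicate number as a block, no variance trend, array weights and each array left out. The mean of a gene's probe sets and the removal of probe sets ending in x_at or s_at were also used. For the whole fit that removal was chosen after seeing the data. Probe sets ending in a_at were kept, among them 11735508_a_at of AKR1D1 and 11715711_a_at of AKR1C3. An a_at ending does not ensure a single gene, since 11742378_a_at carries both AKR1B10 and AKR1B15.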

Additional observations from a re-analysis of the deposited data

How the results depend on the processing

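The AKR1D1 difference, which chose the family and so supports nothing, lay between -0.96 and -1.10 over its 15 alternatives. The 4 called member probe sets became 2 with a replicate block, which lost both of AKR7A2, 1 with no mean-variance trend (AKR1D1) and 1 to 4 with each array left out. The 10 called list genes became 16 of 88 with 1 probe set per gene and a floor, 5 with a replicate block (which lost HSD17B7, CBR4, HAGH, NFE2L2 and UGDH), 2 with no mean-variance trend (CBR3 and OSGIN1), 6 of 92 without x_at and s_at probe sets, and 5 to 12 with each array left out. The called probe sets of HSD17B7, UGDH, KRT18 and NFE2L2 end in x_at or s_at, so the setting without these left them untested. Over the whole table the 4123 calls became 2259 of 10879 with 1 probe set per gene and a floor, 2328 with a replicate block, 1321 with no mean-variance trend, 2683 of 34921 without x_at and s_at probe sets, and 1967 to 4325 with each array left out. The median member difference was -0.25 over the 3 members above the gene floor, since AKR1B10 lay under it, and -0.12 to -0.02 with each array left out. Of the 3, AKR1D1 passed that floor through the GFP arrays, and its satellite alpha mean lay below it. Probe sets disagreed in sign for 2 member genes (AKR1C2 and AKR1C3), and for 1 (AKR1C3) without x_at and s_at probe sets. That setting left AKR1C2 with 11729101_a_at only, which cannot disagree with itself, so nothing is read from the lower count. The replicate numbers did not pair the arrays: the deviations of same-numbered arrays correlated at -0.01, -0.12 and -0.14. No array correlated best with its own number, so the block result is given as a value only. Where fewer arrays, fewer probe sets or a pooled variance entered, the alternative's construction changes the power; otherwise the cause was not tested. Signal could not be set against background, which limits what can be said of the dim AKR1C1, AKR1C2 and AKR1C4 and of AKR1D1 with satellite alpha.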
